A study of Homo sapiens with 3 samples.

Results

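Interferon-stimulated genes are the genes that cells switch on when interferon reaches them. They are described here in 3 cultures derived from H9, an established human embryonic stem cell line. A list of 42 such genes was set, and each gene was represented by the probe set with the highest mean over the 3 arrays among those whose annotation gives that gene alone. This found 41 of the 42 genes, through 75 probe sets, among 19775 genes in all; DDX58 was found under its current symbol RIGI through its gene identifier, and STAT2 is not analysed here. The RA astrocytes were cells at day 210 of differentiation that had received retinoic acid (RA), a morphogen that gives neural tissue a caudal identity, from day 10 to day 21. The FGF8 astrocytes were cells of the same age that had received fibroblast growth factor 8 (FGF8), a signal of the boundary between midbrain and hindbrain, over the same days. The neuroepithelial (NE) cells were early neural progenitors at day 17 that had received neither morphogen. All the cultures started from embryoid bodies after the stem cells were taken off mouse embryonic fibroblasts, and all carried the H9 genotype. Day of culture, cell type and morphogen therefore cannot be told apart in either comparison with NE cells. Each group had 1 array of total RNA. The differences below therefore carry no error and no test, and genes were counted as higher or lower from a 2-fold difference.

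Type I interferons bind the receptor made of IFNAR1 and IFNAR2, and the kinases JAK1 and TYK2 then act on transcription factors, STAT2 among them. With IRF9 these form the complex ISGF3, which binds the interferon-stimulated response element (ISRE) in the promoters of its target genes. Interferon gamma acts through IFNGR1 and IFNGR2, and its target promoters hold the gamma-activated site (GAS). The target genes encode sensors of foreign nucleic acid, proteins that block single steps of a virus's life cycle, and the regulators of the response itself. Astrocytes respond to interferon, and many cells keep a low level of these genes without an infection.

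Many interferon-stimulated genes had a higher signal in the day 210 cultures than in neuroepithelial cells, and more of them in RA than in FGF8 astrocytes by count. In RA astrocytes 25 of the 31 genes that could be compared with neuroepithelial cells were at least 2-fold higher and 0 were lower, against 18.3% of all genes compared that were at least 2-fold higher and 14.9% that were at least 2-fold lower. In FGF8 astrocytes 18 of 35 were higher and 1, BST2, was lower, where 12.9% and 10.4% of all genes were. Between the astrocyte cultures 10 of 36 were higher in RA and 2 were lower, where 9.8% and 7.88% of all genes were. The largest differences seen in both astrocyte cultures belonged to the DNA sensor IFI16, the ubiquitin ligase TRIM22, the IFIT family genes IFIT2 and IFIT3, the ADP-ribosyltransferase family gene PARP9 and the ISGF3 subunit IRF9. Genes that interferon is known to induce strongly in many cells, OAS1, OAS2, MX2, RSAD2 and IFI27, lay below the floor on all 3 arrays.

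The median log2 difference of the list was 1.83 in RA astrocytes and 1.03 in FGF8 astrocytes over neuroepithelial cells, beside 0.07 and 0.05 for all genes compared. Between RA and FGF8 astrocytes it was 0.69, beside 0.01 for all genes. A signal is the quantile-normalized intensity of a probe set on a linear scale. The floor was set at the median signal over the non-control probe sets, 26.4, and lower values were raised to it before any difference was taken. Where 1 of the arrays lay below it, the difference is given as "at least" its value, and a bound under 2-fold does not show whether the difference was larger than that. Such genes are not counted as higher or lower. A gene at or below the floor on both arrays was not compared, so a gene below it in neuroepithelial cells could enter that comparison only by being higher. Counted over all measured genes instead, the share at least 2-fold higher in RA astrocytes was 61.0% of the 41 listed genes and 12.6% of all 19775. In FGF8 astrocytes it was 43.9% of the listed genes and 8.60% of all. Of the 18 listed genes above the floor in neuroepithelial cells, 14 were higher in RA astrocytes and 9 in FGF8 astrocytes, and of all such genes 16.3% and 11.0% were. When array medians were set equal, the median of all genes was 0.35 in RA and 0.43 in FGF8 astrocytes and that of the list 2.02 and 1.36; 25.7% of all genes were then higher and 10.8% lower in RA astrocytes, and 22.1% and 7.20% in FGF8 astrocytes.

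**Figure D1:**
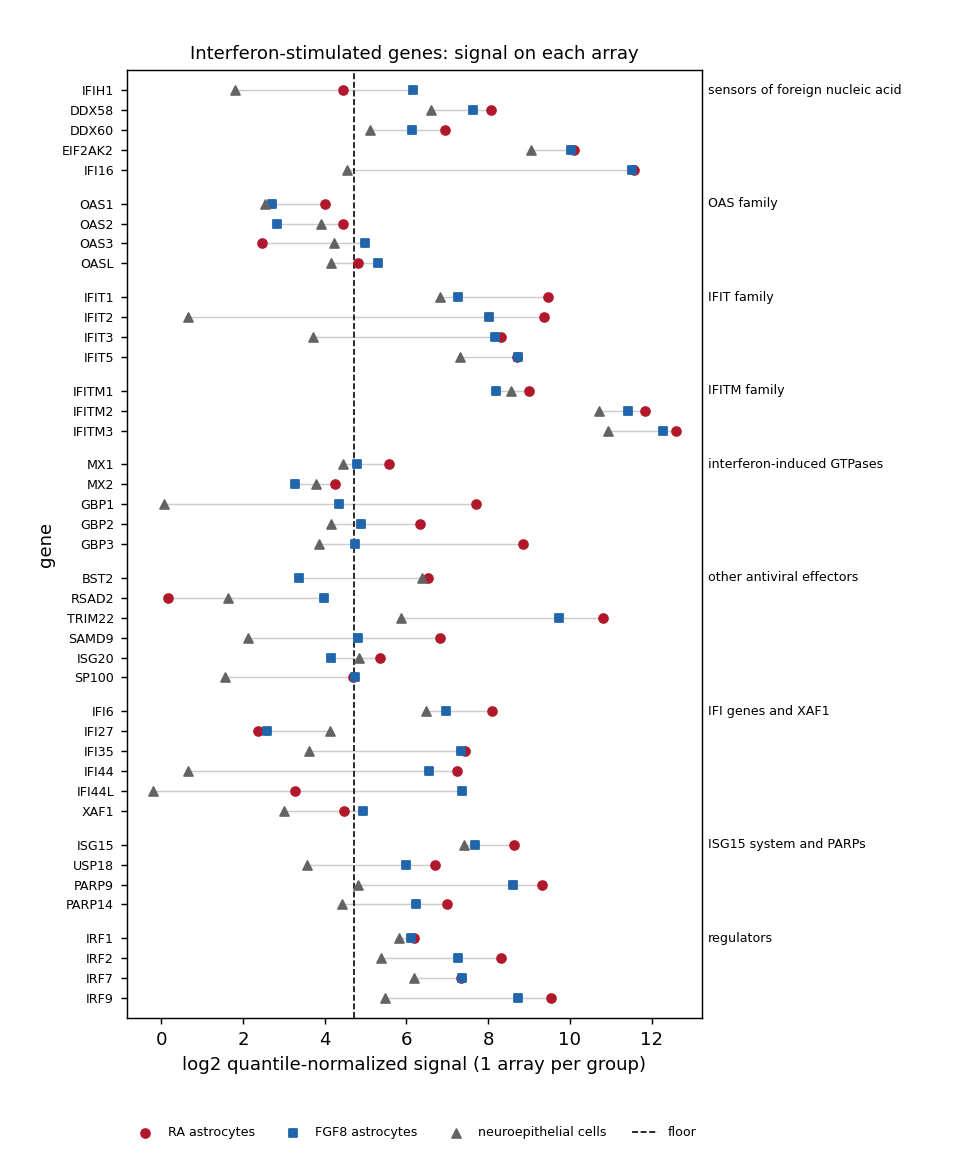
Signal of each of the 41 interferon-stimulated genes on each array (log2 of the quantile-normalized signal; 1 array per group), with genes grouped by role and the floor at log2 4.72 as a dashed line. Points compare within a row only, since probe sets differ in brightness. In most rows both astrocyte points lie to the right of the neuroepithelial point, and the rows of OAS1, OAS2, MX2, RSAD2 and IFI27 lie wholly left of the floor.

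The arrays differed in other ways that move with the groups. The signal at the 3' end over that at the 5' end of ACTB, a measure of RNA quality, was 6.67 in RA astrocytes and 6.63 in FGF8 astrocytes, against 1.33 in neuroepithelial cells. The same ratio of GAPDH was 1.79 in RA astrocytes, 1.65 in FGF8 astrocytes and 0.98 in neuroepithelial cells. In the deposited values, which had already been scaled, hybridisation spike-ins were 2.62-fold brighter on the RA array than on the neuroepithelial array. They were 2.40-fold brighter on the RA array than on the FGF8 array, and 1.09-fold brighter on the FGF8 array than on the neuroepithelial array. Of 8 astrocyte markers 7, GFAP and AQP4 among them, were at least 2-fold higher in both astrocyte cultures. Of 6 neuroepithelial markers 6 were lower in RA and 5 in FGF8 astrocytes. Of all genes compared, 18.3% were higher and 14.9% lower in RA astrocytes, and 12.9% and 10.4% in FGF8 astrocytes. Of 8 markers of microglia and macrophages, cells that express many interferon-stimulated genes, 6 lay below the floor on all arrays, AIF1, PTPRC and TYROBP among them. CSF1R had a signal of 31.2 in RA astrocytes and ITGAM of 31.7 in FGF8 astrocytes, both close to the floor, and the summed signal of the list was 107 in RA astrocytes, 70.3 in FGF8 astrocytes and 64.6 in neuroepithelial cells. Of 5 lymphocyte markers, 3 lay below the floor on all arrays, while CD3D at 36.1 and CD3E at 35.2 lay just above it in RA astrocytes alone; the summed signal was 99.8 in RA astrocytes, 33.4 in FGF8 astrocytes and 66.4 in NE cells. All 6 fibroblast and mesenchyme markers were lower in both astrocyte cultures, with summed signals of 114 in RA and 445 in FGF8 astrocytes, against 10445 in NE cells. The 5 endothelial markers summed to 33.0 in RA and 49.4 in FGF8 astrocytes, against 241 in NE cells, with none at least 2-fold higher. Of 6 neuronal markers 2 were higher and 3 lower in RA astrocytes, and 2 higher and 1 lower in FGF8 astrocytes. The 1 lower in FGF8 astrocytes was a share of 16.7%, beside 10.4% of all genes. The neuronal markers summed to 14669 in RA and 12812 in FGF8 astrocytes, against 6542 in NE cells, mostly through GAP43 at 12067 in RA astrocytes. DCX, a gene of young neurons, had a signal of 401 in RA and 7092 in FGF8 astrocytes, against 2364 in NE cells. Other neuronal markers went the other way between the astrocyte cultures. STMN2 had 121 in RA and 1.53 in FGF8 astrocytes, against 2503 in NE cells, and SYT1 had 2056 in RA and 405 in FGF8 astrocytes, against 631. Of the 5 neuronal markers compared between RA and FGF8 astrocytes, 3 were higher in RA and 2 lower, where 9.8% and 7.88% of all genes were. The part of RNA quality, array brightness and these other cells in the differences below was not tested. In cultures measured in bulk, more cells that express a gene and more RNA of it per cell cannot be told apart.

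The promoters of 6 listed genes are shown because they hold both extremes of the comparison with neuroepithelial cells. IFI16, PARP9, IFIT3 and IRF9 had the largest differences shared by both astrocyte cultures among genes with a promoter sequence, and IRF1 and IFITM1 were those not past 2-fold in either whose larger difference of the pair was smallest. Each sequence is from RefSeq (GRCh38.p14), runs 5' to 3' on the gene's own strand, and covers 250 bases before and 50 bases from the transcription start. Capitals mark each match to the ISRE core, GAAANNGAAA on either strand, or to the GAS, TTCNNNGAA, which reads the same on both strands.

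IFI16 (chr1:159008741-159009040, plus strand): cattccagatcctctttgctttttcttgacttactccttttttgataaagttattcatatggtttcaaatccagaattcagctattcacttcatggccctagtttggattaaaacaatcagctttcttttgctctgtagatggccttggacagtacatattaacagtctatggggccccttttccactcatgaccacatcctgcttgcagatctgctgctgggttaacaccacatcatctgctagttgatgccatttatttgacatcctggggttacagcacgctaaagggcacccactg
PARP9 (chr3:122564735-122565034, minus strand): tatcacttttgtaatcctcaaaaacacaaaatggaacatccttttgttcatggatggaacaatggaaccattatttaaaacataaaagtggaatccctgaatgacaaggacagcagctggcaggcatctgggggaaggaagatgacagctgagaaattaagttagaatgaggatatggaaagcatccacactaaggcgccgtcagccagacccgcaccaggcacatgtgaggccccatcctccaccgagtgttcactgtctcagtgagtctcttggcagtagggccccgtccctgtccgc
IFIT3 (chr10:89327747-89328046, plus strand): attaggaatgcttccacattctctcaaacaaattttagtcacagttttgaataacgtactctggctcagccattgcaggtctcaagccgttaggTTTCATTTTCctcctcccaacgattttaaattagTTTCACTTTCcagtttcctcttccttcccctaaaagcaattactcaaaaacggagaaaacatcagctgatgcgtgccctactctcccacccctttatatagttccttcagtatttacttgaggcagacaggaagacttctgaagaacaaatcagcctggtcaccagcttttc
IRF9 (chr14:24161015-24161314, plus strand): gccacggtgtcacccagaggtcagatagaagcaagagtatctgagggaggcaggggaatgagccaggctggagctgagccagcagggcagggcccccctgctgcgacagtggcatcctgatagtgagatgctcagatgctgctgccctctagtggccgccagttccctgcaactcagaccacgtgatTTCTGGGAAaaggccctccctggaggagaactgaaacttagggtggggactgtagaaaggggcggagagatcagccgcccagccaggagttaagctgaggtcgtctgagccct
IRF1 (chr5:132490724-132491023, minus strand): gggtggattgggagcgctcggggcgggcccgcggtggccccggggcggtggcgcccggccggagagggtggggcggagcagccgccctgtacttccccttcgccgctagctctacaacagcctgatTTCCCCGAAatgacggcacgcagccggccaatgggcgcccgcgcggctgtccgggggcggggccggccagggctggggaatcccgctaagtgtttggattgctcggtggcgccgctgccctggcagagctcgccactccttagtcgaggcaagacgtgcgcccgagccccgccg
IFITM1 (chr11:313790-314089, plus strand): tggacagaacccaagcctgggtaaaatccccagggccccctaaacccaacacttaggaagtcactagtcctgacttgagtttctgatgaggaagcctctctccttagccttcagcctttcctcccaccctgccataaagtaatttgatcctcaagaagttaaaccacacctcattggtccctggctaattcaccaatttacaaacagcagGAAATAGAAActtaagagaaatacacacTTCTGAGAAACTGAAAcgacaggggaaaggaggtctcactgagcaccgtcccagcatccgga

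The IFIT3 promoter held 2 ISRE cores, both on the opposite strand, from -156 to -147 and from -122 to -113 relative to the start. IRF9 held a GAS from -63 to -55 and IRF1 a GAS from -124 to -116, and neither held an ISRE core. IFITM1 held ISRE cores from -40 to -31 and from -6 to 4 and a GAS from -12 to -4, so the last pair overlap and are printed as a single run of capitals. No match to either motif lay in the printed windows of IFI16 and PARP9, which says only that these letters are not there.

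The regulators of the response were detected in every culture. IRF9, the DNA-binding subunit of ISGF3, had a signal of 741 in RA astrocytes and 427 in FGF8 astrocytes, against 44.5 in neuroepithelial cells. It was thus 16.7-fold higher in RA and 9.61-fold higher in FGF8 astrocytes, the largest difference among the regulators measured, and its promoter is shown above with a GAS and no ISRE core. IRF2, which binds the same sites as IRF1 and can oppose it, had a signal of 320 in RA and 154 in FGF8 astrocytes, against 41.4 in NE cells. IRF2 was 7.74-fold higher in RA and 3.73-fold higher in FGF8 astrocytes, and it was also 2.07-fold higher in RA than in FGF8 astrocytes. IRF7, the amplifier of type I interferon production, had 161 in RA and 165 in FGF8 astrocytes, against 72.3 in NE cells. It was 2.23-fold higher in RA and 2.28-fold higher in FGF8 astrocytes, with nearly the same signal in both astrocyte cultures. Without quantile normalization its log2 difference in RA astrocytes was 0.94, under 2-fold. IRF1, itself induced by interferon gamma, had 73.1 in RA and 69.8 in FGF8 astrocytes, against 56.7 in NE cells. Its log2 differences of 0.37 in RA and 0.30 in FGF8 astrocytes lay well within 2-fold, so the 3 arrays differed little for this gene, and its other probe set lay below the floor on all of them.

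Of the sensors of foreign nucleic acid, 4 of 4 compared were at least 2-fold higher in RA and 4 of 5 in FGF8 astrocytes. Of all genes 18.3% and 12.9% were. IFI16, DDX58 and DDX60 were higher in both, DDX58 and DDX60 only just past 2-fold in FGF8 astrocytes. IFI16, which binds DNA in the nucleus and cytoplasm, had a signal of 3017 in RA astrocytes and 2927 in FGF8 astrocytes, against 23.3 in neuroepithelial cells, below the floor. This made it at least 114-fold higher in RA and at least 111-fold higher in FGF8 astrocytes, while between the astrocyte cultures it differed by 0.04 on the log2 scale. A second IFI16 probe set was above the floor on every array, with 2700 in RA and 2631 in FGF8 astrocytes, against 36.3 in NE cells, and gave log2 differences of 6.21 in RA and 6.18 in FGF8 astrocytes. A further one gave at least 4.18 in RA and at least 4.65 in FGF8 astrocytes, and -0.47 between RA and FGF8 astrocytes. DDX58, the RNA sensor RIG-I, had 268 in RA and 197 in FGF8 astrocytes, against 96.4 in NE cells, and was 2.78-fold higher in RA and 2.05-fold higher in FGF8 astrocytes. Both of its other probe sets were also past 2-fold in RA astrocytes, while in FGF8 astrocytes they gave log2 differences of at least 0.77, a bound, and of 0.64, within 2-fold. The helicase DDX60 had 123 in RA and 70.8 in FGF8 astrocytes, against 34.3 in NE cells, and was 3.57-fold higher in RA and 2.06-fold higher in FGF8 astrocytes. EIF2AK2, the kinase PKR that halts translation when it meets double-stranded RNA, had 1096 in RA and 1039 in FGF8 astrocytes, against 527 in NE cells. Its main probe set was 2.08-fold higher in RA and 1.97-fold higher in FGF8 astrocytes, and a second gave log2 differences of 0.59 in RA and -0.01 in FGF8 astrocytes. A further one lay below the floor in RA astrocytes, with a log2 difference of -1.74 as a bound there and 0.05 in FGF8 astrocytes, so the probe sets of EIF2AK2 disagreed in RA astrocytes. IFIH1, the RNA sensor MDA5, had a signal of 71.0 in FGF8 astrocytes alone and 21.7 in RA astrocytes and 3.52 in neuroepithelial cells, both below the floor. Its call rests on 1 of 3 probe sets, the others being below the floor on every array.

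The IFIT genes, some of whose proteins bind foreign RNA that lacks the cap marks of the cell's own, were all at least 2-fold higher in RA astrocytes. IFIT1 had 706 in RA and 155 in FGF8 astrocytes, against 112 in neuroepithelial cells. It was 6.28-fold higher in RA astrocytes but 1.38-fold higher in FGF8 astrocytes, and so 4.56-fold higher in RA than in FGF8 astrocytes. IFIT2 had 656 in RA and 259 in FGF8 astrocytes, against 1.58 in NE cells, and was at least 24.9-fold higher in RA and at least 9.82-fold higher in FGF8 astrocytes. The RA signal of IFIT2 was 2.53-fold that of FGF8 astrocytes, and a second probe set gave a log2 difference of 0.61 there, within 2-fold. IFIT3 had 320 in RA and 290 in FGF8 astrocytes, against 13.1 in NE cells. It was at least 12.1-fold higher in RA and at least 11.0-fold higher in FGF8 astrocytes, and differed between the astrocyte cultures by only 0.14 on the log2 scale. IFIT5 had 421 in RA and 424 in FGF8 astrocytes, against 159 in NE cells, and was 2.64-fold higher in RA and 2.66-fold higher in FGF8 astrocytes. Its second probe set gave log2 differences of 1.58 in RA and 0.88 in FGF8 astrocytes. The 4 genes lie beside each other on chromosome 10, with 1 other protein-coding gene between IFIT3 and IFIT1, and the pattern over the cultures differed among these neighbours.

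The IFITM proteins, which sit in membranes and hinder the entry of enveloped viruses, had clear signals in every culture. IFITM3 had 6173 in RA and 4982 in FGF8 astrocytes, against 1968 in neuroepithelial cells, and was 3.14-fold higher in RA and 2.53-fold higher in FGF8 astrocytes. IFITM2 had 3631 in RA and 2758 in FGF8 astrocytes, against 1675 in NE cells, and was 2.17-fold higher in RA and 1.65-fold higher in FGF8 astrocytes. IFITM1 had 513 in RA and 292 in FGF8 astrocytes, against 380 in NE cells, so it was the only IFITM gene within 2-fold in both cultures, with log2 differences of 0.43 in RA and -0.38 in FGF8 astrocytes. The IFITM genes are neighbours on chromosome 11 and close copies of each other. The IFITM2 and IFITM3 probe sets are of a type (_x_at) that can bind related transcripts, so their signals may include each other's.

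The OAS genes encode enzymes that make short oligoadenylates from ATP on double-stranded RNA and so activate RNase L. OAS1 had signals of 16.1, 6.50 and 5.82 in RA astrocytes, FGF8 astrocytes and neuroepithelial cells, all below the floor. OAS2 had 21.7 in RA astrocytes, 7.18 in FGF8 astrocytes and 15.2 in NE cells, below it as well. OAS3 had 31.8 in FGF8 astrocytes and lay below the floor elsewhere, at 5.53 in RA astrocytes and 18.9 in NE cells, and OASL had 28.3 in RA and 39.6 in FGF8 astrocytes, against 17.9 in NE cells. No OAS gene was counted as higher or lower in any comparison, where OAS3 and most OASL differences are bounds, and the 3 that are neighbours on chromosome 12 were below or close to the floor throughout.

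Interferon-induced GTPases had the largest median log2 difference between RA and FGF8 astrocytes among the 9 groups of roles, 2.22 over the 4 genes compared. GBP3, a guanylate-binding protein of the defence against intracellular pathogens, had a signal of 463 in RA astrocytes and 26.6 in FGF8 astrocytes, against 14.6 in neuroepithelial cells. It was at least 17.6-fold higher in RA astrocytes than in neuroepithelial cells and 17.4-fold higher than in FGF8 astrocytes, whose value lay just above the floor. GBP1 had 210 in RA astrocytes and lay below the floor in the others, at 20.4 in FGF8 astrocytes and 1.06 in NE cells, so it was at least 7.96-fold higher in RA astrocytes in both comparisons. Of its other probe sets, a pair gave log2 differences of at least 1.77 and at least 2.59 in both comparisons, while a further one was below the floor on every array. GBP2 had 81.2 in RA and 29.7 in FGF8 astrocytes, against 17.9 in NE cells, and was at least 3.08-fold higher in RA astrocytes than in neuroepithelial cells and 2.73-fold higher than in FGF8 astrocytes. The 3 GBP genes are direct neighbours on chromosome 1, and each was at least 2-fold higher in RA than in FGF8 astrocytes. MX1, the dynamin-like protein MxA that traps viral nucleocapsids, had 48.0 in RA and 27.8 in FGF8 astrocytes and lay below the floor in NE cells, so it was at least 1.82-fold higher in RA and at least 1.05-fold higher in FGF8 astrocytes. MX2 had 19.2 in RA astrocytes, 9.70 in FGF8 astrocytes and 13.9 in NE cells, all below the floor.

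**Figure D2:**
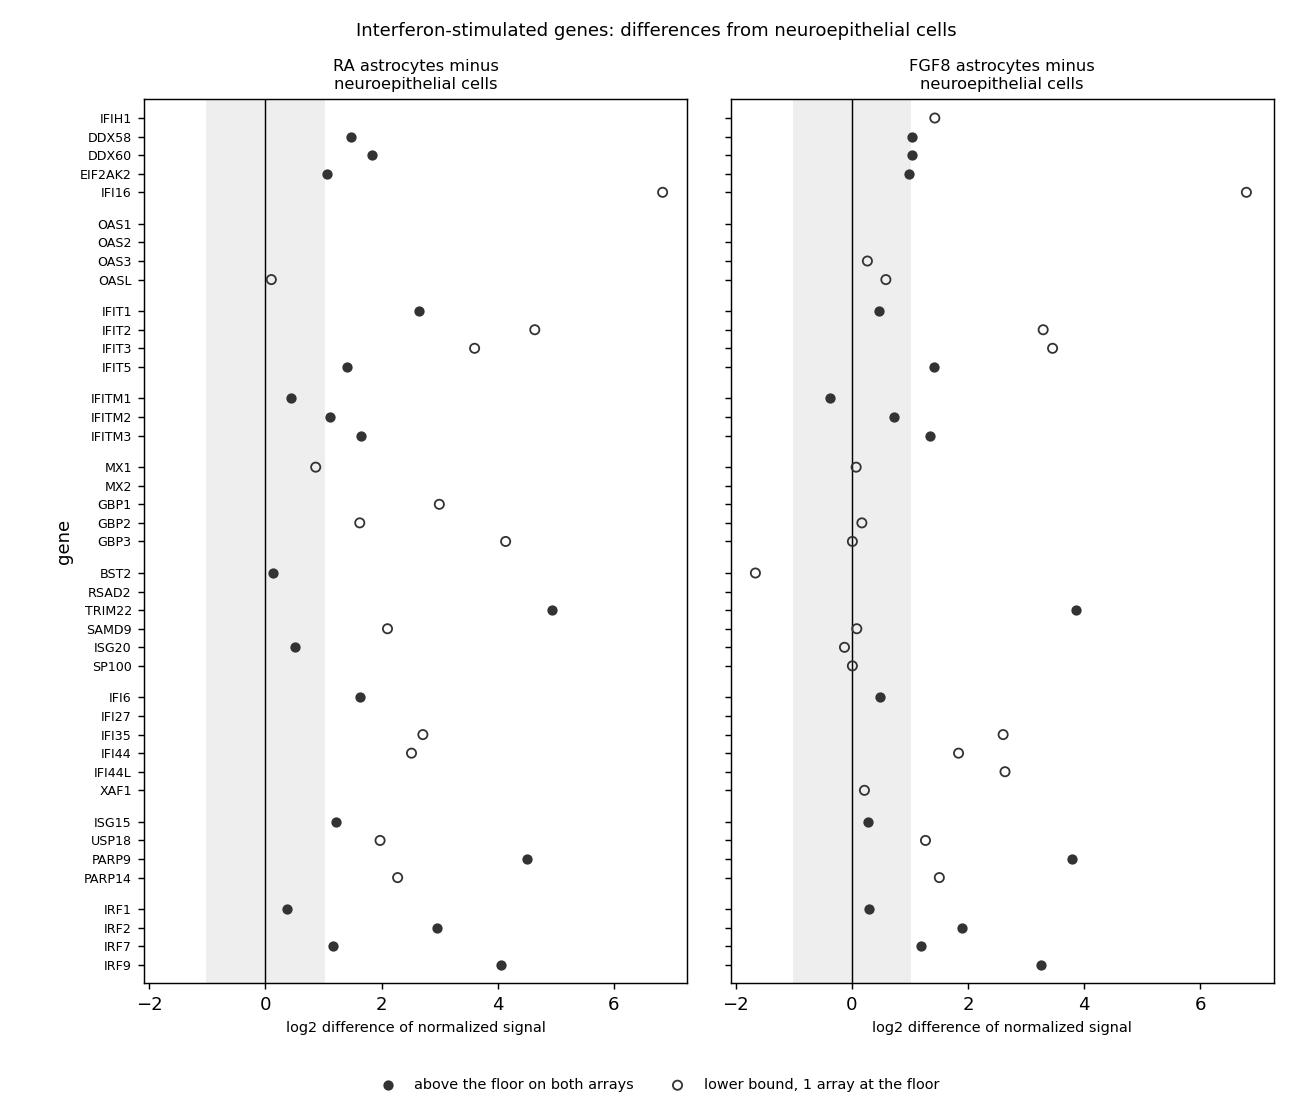
Log2 difference of the normalized signal for each interferon-stimulated gene, RA astrocytes minus neuroepithelial cells on the left and FGF8 astrocytes minus neuroepithelial cells on the right, on the same scale. Filled points were above the floor on both arrays, open points are lower bounds on the size, the grey band marks values under 2-fold, and rows without a point were not compared. Both panels share the neuroepithelial array, and 25 points on the left and 18 on the right lie at 1 or more.

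The other antiviral effectors differed among themselves. TRIM22, a ubiquitin ligase that restricts retroviruses, had 1785 in RA and 849 in FGF8 astrocytes, against 58.2 in neuroepithelial cells. It was 30.7-fold higher in RA and 14.6-fold higher in FGF8 astrocytes, and 2.10-fold higher in RA than in FGF8 astrocytes. SAMD9, a restriction factor of poxviruses, had 113 in RA and 28.0 in FGF8 astrocytes, against 4.33 in NE cells, and was at least 4.29-fold higher in RA astrocytes; its second probe set gave a log2 difference of at least 0.61. BST2, the tetherin that holds budding virions at the cell surface, had 91.6 in RA astrocytes and 10.4 in FGF8 astrocytes, against 83.3 in neuroepithelial cells. BST2 was thus at least 3.16-fold lower in FGF8 astrocytes than in neuroepithelial cells, and RA astrocytes were at least 3.47-fold higher than FGF8 astrocytes. The exonuclease ISG20 had 40.9 in RA and 17.7 in FGF8 astrocytes, against 28.8 in NE cells, and was not counted as higher or lower in any comparison, those with FGF8 astrocytes being bounds. RSAD2, the enzyme viperin, had 1.13, 15.9 and 3.12 in RA astrocytes, FGF8 astrocytes and neuroepithelial cells, all below the floor. SP100, a protein of nuclear bodies, had 25.9 in RA and 26.6 in FGF8 astrocytes, against 2.95 in NE cells, and none of its 6 probe sets was counted as higher or lower, since all lay below or just above the floor.

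Among the IFI genes, IFI35 had 173 in RA and 161 in FGF8 astrocytes, against 12.3 in neuroepithelial cells, and was at least 6.54-fold higher in RA and at least 6.09-fold higher in FGF8 astrocytes. IFI44 had 151 in RA and 94.3 in FGF8 astrocytes, against 1.58 in NE cells, and was at least 5.71-fold higher in RA and at least 3.58-fold higher in FGF8 astrocytes, while its second, dimmer probe set gave bounds of at least 0.42 in RA and at least 0.25 in FGF8 astrocytes on the log2 scale. IFI44L, its neighbour on chromosome 1, had 164 in FGF8 astrocytes, at least 6.23-fold higher than in neuroepithelial cells at 0.870. In RA astrocytes IFI44L had 9.67, below the floor, so that it was at least 6.23-fold lower in RA than in FGF8 astrocytes. With IFIH1 it formed the pair of listed genes that were at least 2-fold lower in RA than in FGF8 astrocytes, opposite to most of the list. IFI6, a membrane protein that limits flavivirus replication, had 276 in RA and 124 in FGF8 astrocytes, against 88.7 in NE cells, and was 3.11-fold higher in RA astrocytes and 1.40-fold higher in FGF8 astrocytes. IFI27 had 5.18, 6.02 and 17.6 in RA astrocytes, FGF8 astrocytes and neuroepithelial cells, and XAF1, a promoter of cell death, had 22.2 in RA and 30.7 in FGF8 astrocytes, against 7.999 in NE cells, with the FGF8 value alone above the floor.

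ISG15, a ubiquitin-like protein that is joined to others in the interferon response, had 394 in RA and 205 in FGF8 astrocytes, against 170 in neuroepithelial cells. It was 2.32-fold higher in RA and 1.21-fold higher in FGF8 astrocytes. USP18, the protease that removes ISG15 and also damps the type I receptor, had 104 in RA and 63.6 in FGF8 astrocytes, against 11.8 in NE cells, and was at least 3.93-fold higher in RA and at least 2.41-fold higher in FGF8 astrocytes. PARP9, which acts with the ubiquitin ligase DTX3L, had 638 in RA and 390 in FGF8 astrocytes, against 28.1 in NE cells, and was 22.7-fold higher in RA and 13.9-fold higher in FGF8 astrocytes. A second PARP9 probe set gave log2 differences of at least 2.93 in RA and at least 2.94 in FGF8 astrocytes. It had nearly equal signals in both astrocyte cultures, 202 in each, where the main one gave a log2 difference of 0.71. PARP14, a mono-ADP-ribosyltransferase encoded nearby on chromosome 3, had 128 in RA and 74.96 in FGF8 astrocytes, against 21.5 in NE cells, and was at least 4.84-fold higher in RA and at least 2.84-fold higher in FGF8 astrocytes. In this group the RA signal was above the FGF8 signal for all 4 genes on their main probe sets, by 0.70 to 0.94 on the log2 scale, each within 2-fold.

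**Figure D3:**
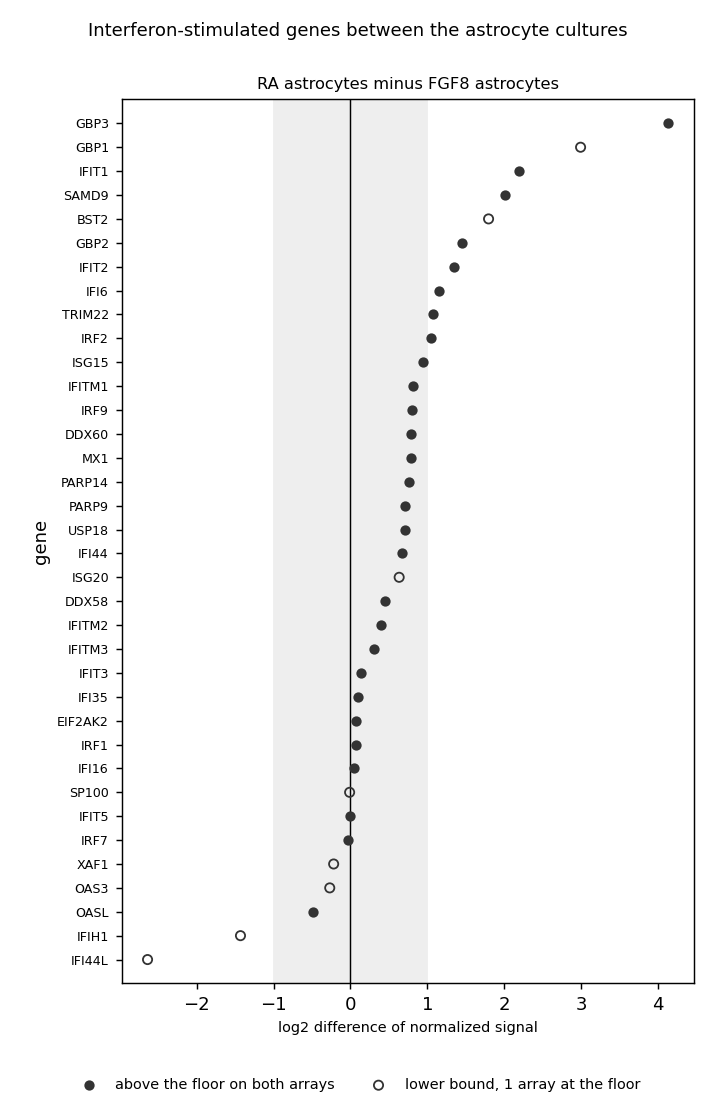
Log2 difference of the normalized signal, RA astrocytes minus FGF8 astrocytes, for the 36 interferon-stimulated genes compared, in order of the difference. Filled points were above the floor on both arrays, open points are lower bounds on the size, and the grey band marks values under 2-fold. GBP3 at 4.12 and GBP1 at 2.99 or more lie at the top, and IFI44L at -2.64 and IFIH1 at -1.43 at the bottom.

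The comparison of RA with FGF8 astrocytes sets side by side 2 cultures of the same age that had received different morphogens. These cultures also differed in markers of cell type. GFAP was 4.74-fold higher and SLC1A3 4.34-fold lower in RA than in FGF8 astrocytes, with the other 6 astrocyte markers within 2-fold. Of 5 neuroepithelial markers compared, 3 were lower in RA astrocytes, where 7.88% of all genes were. These were SOX1 by 2.59-fold, HES5 by 3.06-fold and OTX2 by 3.83-fold. The part of cell make-up in the differences below was not tested. The 10 genes at least 2-fold higher in RA astrocytes were GBP3, GBP1, IFIT1, SAMD9, BST2, GBP2, IFIT2, IFI6, TRIM22 and IRF2. Over the 36 genes compared, 28 differences lay above 0 and 8 below, and over all 13158 genes compared 6663 lay above 0 and 6493 below. IFI16, IRF1, IRF7, IFIT5, EIF2AK2 and IFI35 differed by less than 0.11 on the log2 scale on their main probe sets. Other probe sets of EIF2AK2 gave 0.60 and, as a bound, -1.79, and the other one of IFIT5 gave 0.70. By main probe sets the list therefore held genes with nearly the same signal in both astrocyte cultures. Beside them stood genes seen in RA astrocytes and near the floor in FGF8 astrocytes. Of the 4 differences of at least 4-fold in favour of RA astrocytes, that of GBP1 rested on an FGF8 signal below the floor, and those of GBP3 and SAMD9 on one just above it.

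The genes that make and carry the signal were read from lists of the pathway. Each gene of these lists was read from 1 probe set, and its other probe sets and other settings are not reported here. Calls close to 2-fold in these lists rest on that probe set alone. Of 18 interferon genes measured, 17 lay below the floor on all arrays. IFNB1 had signals of 2.73, 1.90 and 0.999 in RA astrocytes, FGF8 astrocytes and neuroepithelial cells, and IFNG had 20.6 in RA astrocytes, 20.4 in FGF8 astrocytes and 2.11 in NE cells. The exception was IFNA17, with 35.3 in neuroepithelial cells. Interferon transcripts were thus not detectable above the floor in either astrocyte culture, which does not show that they were absent.

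Receptor and kinase genes were detected and partly higher. IFNAR1 had 427 in RA and 458 in FGF8 astrocytes, against 77.2 in neuroepithelial cells, and was 5.53-fold higher in RA and 5.94-fold higher in FGF8 astrocytes. IFNAR2 had 414 in RA and 358 in FGF8 astrocytes, against 205 in NE cells, and was 2.02-fold higher in RA and 1.75-fold higher in FGF8 astrocytes. IL10RB, shared by the receptors of interferon lambda and interleukin 10, had 188 in RA and 145 in FGF8 astrocytes, against 34.4 in NE cells, and was 5.47-fold higher in RA and 4.20-fold higher in FGF8 astrocytes, while IFNLR1 lay below the floor on all arrays. The interferon gamma receptor chains differed less. IFNGR1 had 604 in RA and 600 in FGF8 astrocytes, against 724 in NE cells, and IFNGR2 had 634 in RA and 883 in FGF8 astrocytes, against 483 in NE cells, all within 2-fold. JAK1 had 1038 in RA and 934 in FGF8 astrocytes, against 362 in NE cells, and was 2.87-fold higher in RA and 2.58-fold higher in FGF8 astrocytes. TYK2 had 233 in RA and 131 in FGF8 astrocytes, against 62.0 in NE cells, and was 3.75-fold higher in RA and 2.12-fold higher in FGF8 astrocytes. JAK2 had 35.2 in RA and 75.9 in FGF8 astrocytes, against 20.9 in NE cells, and was at least 2.88-fold higher in FGF8 astrocytes and 2.15-fold lower in RA than in FGF8 astrocytes.

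In the pathway that induces interferon, 5 of the 7 genes compared were higher in RA astrocytes, where 18.3% of all genes were. In FGF8 astrocytes 1 of 7 (14.3%) was higher, near the 12.9% of all genes, and 0 were lower in either. TRIM25, the ubiquitin ligase that activates RIG-I, had 381 in RA and 279 in FGF8 astrocytes, against 79.7 in NE cells, and was 4.78-fold higher in RA and 3.497-fold higher in FGF8 astrocytes. The DNA sensor CGAS had 73.8 in RA and 31.6 in FGF8 astrocytes, against 6.62 in NE cells, and was at least 2.80-fold higher in RA astrocytes. MAVS, the adaptor of RIG-I and MDA5, had 488 in RA and 382 in FGF8 astrocytes, against 208 in NE cells, and was 2.34-fold higher in RA and 1.83-fold higher in FGF8 astrocytes. The adaptor TICAM1 was at least 2.42-fold and the kinase IKBKE 2.11-fold higher in RA astrocytes. STING1, TLR3 and DHX58 lay below the floor on all arrays.

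Negative regulators differed between the cultures in both directions. SOCS3 had 1513 in RA and 2012 in FGF8 astrocytes, against 172 in neuroepithelial cells, and was 8.81-fold higher in RA and 11.7-fold higher in FGF8 astrocytes. SOCS1, which blocks JAK kinases and is itself interferon-induced, had 255 in RA astrocytes and 30.8 in FGF8 astrocytes, against 22.1 in NE cells. It was at least 9.68-fold higher in RA astrocytes than in neuroepithelial cells and 8.28-fold higher than in FGF8 astrocytes. CISH was 2.005-fold higher in RA astrocytes, with 142 in RA and 76.4 in FGF8 astrocytes, against 70.8 in NE cells. PIAS1, an inhibitor of interferon signalling, had 214 in RA and 430 in FGF8 astrocytes, against 658 in NE cells, and the phosphatase PTPN2 had 154 in RA and 314 in FGF8 astrocytes, against 384 in NE cells. PIAS1 was 3.07-fold and PTPN2 2.49-fold lower in RA than in neuroepithelial cells. Between the astrocyte cultures PIAS1 was 2.01-fold and PTPN2 2.04-fold lower in RA, both close to 2-fold. Of the genes that join ISG15 to its targets, UBE2L6 had 1843 in RA and 851 in FGF8 astrocytes, against 1086 in NE cells, and was 2.16-fold higher in RA than in FGF8 astrocytes, while HERC5 and HERC6 lay at or near the floor.

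Genes known chiefly as targets of interferon gamma were mixed. Of 13 measured, 9 were compared, and 4 (44.4%) were higher in each astrocyte culture. Of all genes 18.3% were higher in RA and 12.9% in FGF8 astrocytes. WARS1, a tRNA synthetase, was the 1 that was lower, by 2.90-fold in FGF8 astrocytes. That share of 11.1% was near the 10.4% of all genes. PSMB9 had 474 in RA and 435 in FGF8 astrocytes, against 1.98 in NE cells, PSMB8 had 333 in RA and 283 in FGF8 astrocytes, against 1.65 in NE cells, and TAP1 had 494 in RA and 438 in FGF8 astrocytes, against 37.2 in NE cells. These are genes of peptide presentation, and their differences were at least 18.0-fold, at least 12.6-fold and 13.3-fold in RA astrocytes and at least 16.5-fold, at least 10.7-fold and 11.8-fold in FGF8 astrocytes. PSMB10, in the same list, had 187 in RA and 150 in FGF8 astrocytes, against 123 in NE cells. It was within 2-fold in both, 1.52-fold higher in RA and 1.22-fold higher in FGF8 astrocytes. CIITA, the master regulator of MHC class II, had 230 in RA and 65.0 in FGF8 astrocytes, against 22.1 in NE cells, and was at least 8.71-fold higher in RA and at least 2.46-fold higher in FGF8 astrocytes. It was 3.54-fold higher in RA than in FGF8 astrocytes. The chemokines CXCL9, CXCL10 and CXCL11 and GBP5 lay below the floor on all arrays, and IDO1 and GBP4 below it in both astrocyte cultures.

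**Figure D4:**
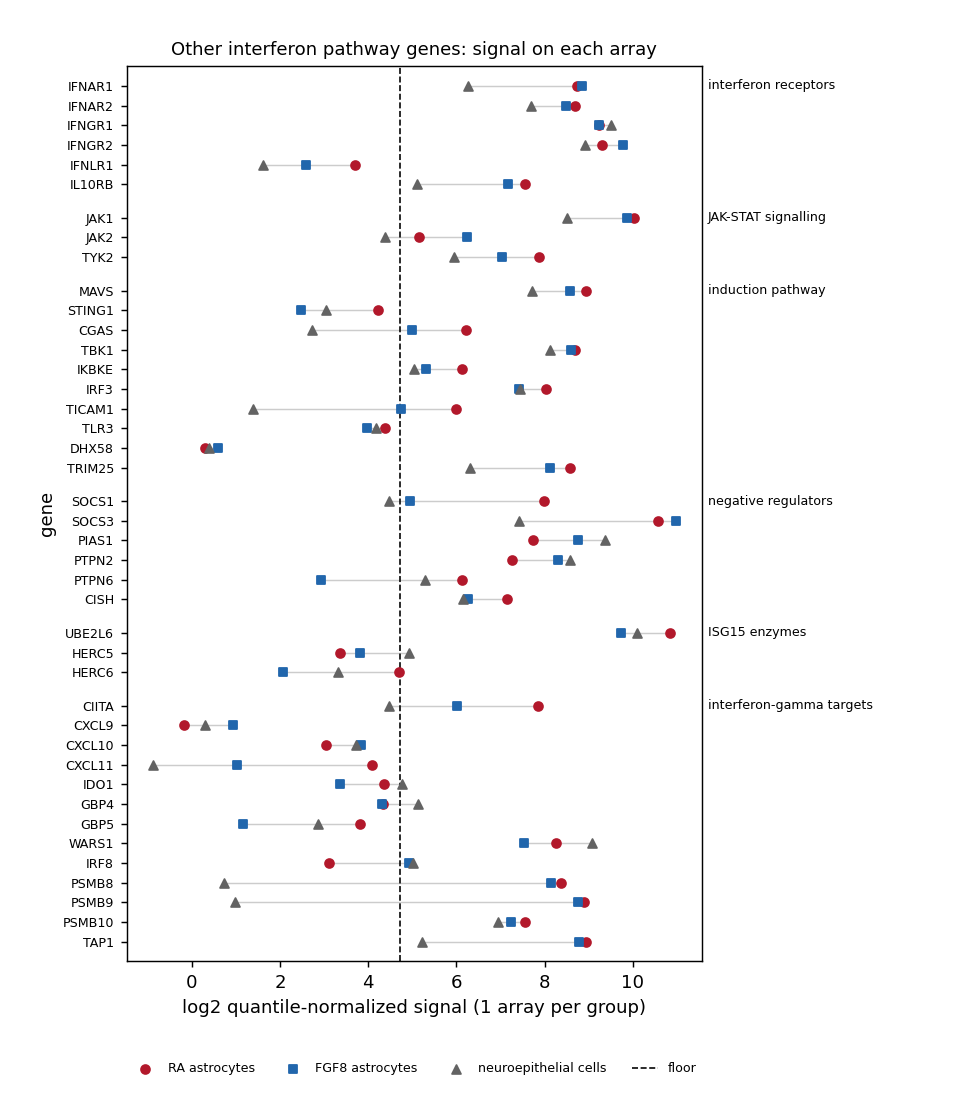
Signal of the other interferon pathway genes on each array (log2 of the quantile-normalized signal; 1 array per group), grouped by list, with the floor at log2 4.72 as a dashed line. Points compare within a row only. IFNAR1, IL10RB, TRIM25, SOCS3, PSMB8, PSMB9 and TAP1 have both astrocyte points well to the right of the neuroepithelial point, and SOCS1 has the RA point alone there.

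The promoter window of 31 of the 41 listed genes was in the RefSeq table; OAS2, OASL, IFIT2, IFITM2, MX2, GBP2, TRIM22, USP18, IRF2 and IRF7 were not. An ISRE core was found in 21 of the 31 windows (67.7%), against 3.57% of all 35116 RefSeq windows of the same length and 3.17% of the 22198 of protein-coding genes. A GAS was found in 10 (32.3%), against 7.66% and 6.79%. Since the list names genes known to answer to interferon, this describes the list and not these cultures. By difference from NE cells, an ISRE core was found in 13 of 18 windows of genes at least 2-fold higher in RA astrocytes, in 4 of 5 of those compared and not higher, and in 4 of 8 of those not compared. For FGF8 astrocytes the counts were 8 of 13, 11 of 14 and 2 of 4. IFI27, below the floor on every array, held 2 ISRE cores, and IFI16, with the largest difference in both astrocyte cultures, held none in its window.

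**Figure D5:**
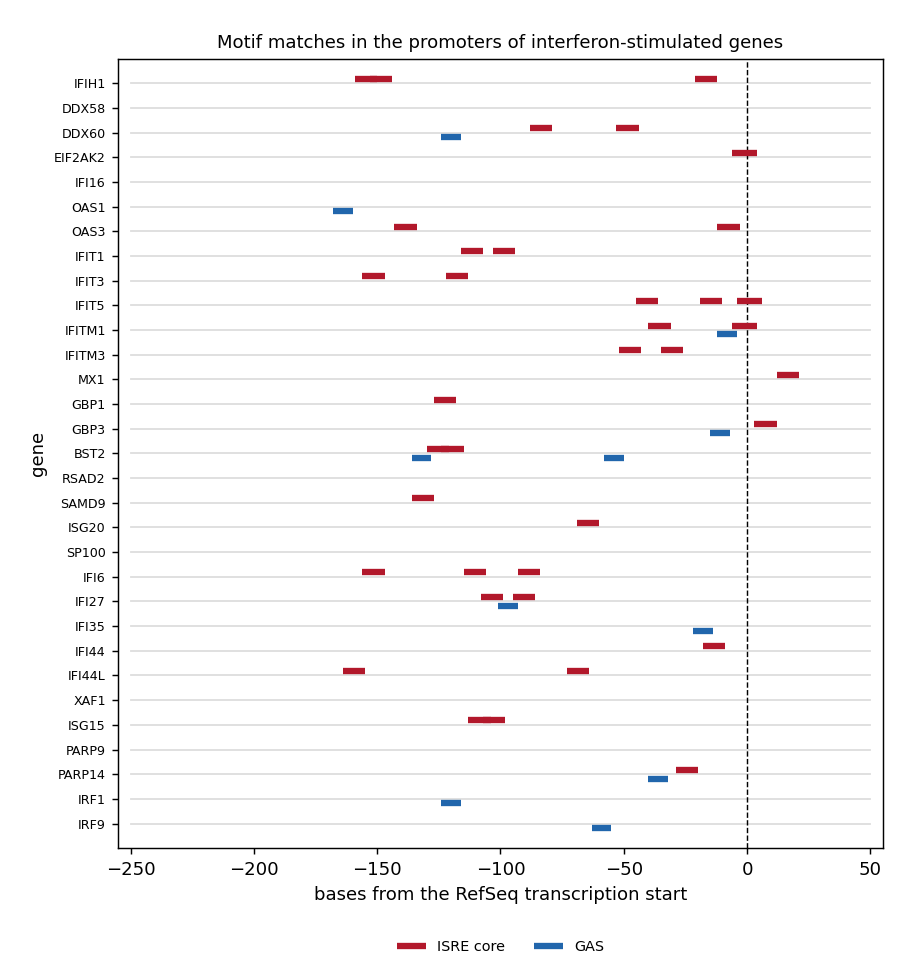
Position of each ISRE core (red) and GAS (blue) match in the promoter windows of the 31 listed genes with a RefSeq promoter, in bases from the transcription start at the dashed line. Of these genes 13 hold 2 or more ISRE cores, and 6 hold neither motif.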

How the data were processed

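Total RNA from 3 cultures was hybridised to Affymetrix expression arrays of 54675 probe sets, labelled with biotin by a core facility, per the labels' protocols. The deposited values are an intensity per probe set on a linear scale. The mean of each array after trimming 2% of probe sets at either end was 150.0, so the deposited intensities had been scaled to a common target. The method that summarised the probes was not given in the sources used here, and no detection calls were used. Intensities were quantile-normalized across the 3 arrays and brought to log2. The floor was the median of 54613 non-control probe sets. Of these, 41091 carried 1 gene symbol (annotation of the array's platform), giving 19775 genes. The listed genes, pathway lists and size of 2-fold were chosen with earlier results of these data known. Named with full values were genes at least 4-fold different in any comparison and the regulators; others were given values beside their group, some after their values were seen. With 1 array per group no test was run, and precision is limited by that number. The computation was checked on simulated arrays with 4-fold differences put into probe sets picked for a bright mean signal. This check did not cover differences given as bounds or the spread between cultures. Promoters came from RefSeq (GRCh38.p14); no array coordinates were used. Python 3.11.15, numpy 2.4.6 and pandas 2.3.3 were used. Alternatives were other scalings, floors, probe set choices and sizes.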

Additional observations from a re-analysis of the deposited data

How the results depend on the processing

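Each of the 3 comparisons was recomputed under 10 alternatives to normalization, floor, probe set choice and size. The median log2 difference of the list ranged from 1.40 to 2.04 in RA and from 0.47 to 1.36 in FGF8 astrocytes over neuroepithelial (NE) cells, and from 0.43 to 0.77 between RA and FGF8 astrocytes; the 0.47, under 2-fold, came with probe sets of the types _x_at and _s_at left out. Of 370 recomputed differences of the 17 genes named by size or as regulators, 290 moved by less than 1.5-fold, 80 moved further and 0 of those at least 2-fold changed sign. With the floor at the 70th percentile, 9 of 19 genes were higher and 0 lower in FGF8 astrocytes than in NE cells. Of all genes 10.9% and 8.20% were. Of 26 genes 0 were lower in RA than in FGF8 astrocytes, where 6.23% of all genes were. That floor leaves fewer genes to compare, and IFI35 (0.85), IFI44 (0.66), IRF7 (0.76), PARP14 (0.42) and SAMD9 (0.25) were then under 2-fold on the log2 scale in RA astrocytes over NE cells, as were IFI35 (0.75), IFI44L (0.78), IRF2 (0.69) and IRF7 (0.79) in FGF8 astrocytes. IFI44L (-0.78) and SAMD9 (0.25) were under 2-fold between RA and FGF8 astrocytes. IRF7 in RA astrocytes over NE cells (0.94, deposited values) and IRF2 between RA and FGF8 astrocytes (0.998, array medians set equal) also passed under 2-fold, and SAMD9 in FGF8 astrocytes over NE cells passed above it with the floor at the 30th percentile (1.56) and with none (2.69). Without a floor, 3 of 41 genes (IFI27, OAS3 and RSAD2) were lower in RA astrocytes than in NE cells. All 3 lay below the main floor in RA astrocytes. In FGF8 astrocytes 3 were lower than in NE cells (BST2, IFI27 and OAS2). The 4 lower in RA than in FGF8 astrocytes were IFIH1, IFI44L, OAS3 and RSAD2. These were 7.32%, 7.32% and 9.76% of the list, under the 21.4%, 18.0% and 16.3% of all genes that were lower. With the mean of all probe sets, 1 of 31 genes was lower in RA than in FGF8 astrocytes, where 8.34% of all genes were. GBP1 (0.61) and PARP14 (0.47) were then under 2-fold in RA astrocytes over NE cells, and PARP14 (0.65) in FGF8 astrocytes over NE cells. Between RA and FGF8 astrocytes GBP1 (0.61) and IFIT2 (0.97) were under it. With that mean IRF1, under 2-fold throughout, took the opposite sign in RA (-0.24) and FGF8 astrocytes (-0.27) over NE cells. PARP14 (-0.18) and IFI16 (-0.13) did so between RA and FGF8 astrocytes. With those 2 types left out, 15 of 20 genes compared were higher in RA and 9 of 24 in FGF8 astrocytes, with fewer genes left to compare. Of all genes 18.6% and 13.4% were. IFI44 gave 0.42 in RA and 0.25 in FGF8 astrocytes. At 4-fold, 14 of 31 were higher in RA astrocytes than in NE cells, where 6.59% of all genes were. In FGF8 astrocytes 8 of 35 were higher and 0 lower, where 3.73% and 3.58% of all genes were. Between RA and FGF8 astrocytes 4 of 36 were higher and 1 lower, where 2.51% and 2.71% of all genes were. The 1 lower was 2.78% of those compared, near the share of all genes. At 1.5-fold 20 of 36 were higher in RA than in FGF8 astrocytes, where 19.7% of all genes were. No paired analysis was possible because each group has 1 array. With no replicates, the spread between cultures of a group is unknown, so differences near 2-fold, such as those of DDX58 and EIF2AK2, cannot be placed on either side of it with an error.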
